A study of Nannochloropsis oceanica with 6 samples.

Results

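Protein kinase genes were compared in Nannochloropsis oceanica IMET1, a unicellular eustigmatophyte alga from the sea, between cultures at low and at high CO2. A gene was taken as a member when the best Swiss-Prot match in the deposited tables named a protein kinase, a tyrosine-protein kinase, an SNF-type kinase or a mitogen-activated kinase. Descriptions with the words calcium, calmodulin, cyclin, phosphatase, inhibitor or ribosomal were left out, as was the phototropin gene NO01G04880. This gave 139 of 10633 genes. The word rule for calcium, calmodulin and the other terms set aside 15 genes.

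Each of the 6 libraries, 3 per group, came from the poly(A) RNA of its own column reactor with the unmodified strain, so replicates were separate cultures. The 3 low CO2 cultures received air with 0.04% CO2 for 24 h, and the 3 high CO2 cultures, the controls, received air with 5% CO2 for the same time. All 6 had first been adapted at 5% CO2 for 1 h, and all were started at an OD750 of 1.5 in 800 ml of seawater-type medium, buffered to pH 8.2 by 10 mM Tris, at 25 °C and a light of 80 µmol photons per square metre and second. Low CO2 replicates 1, 2 and 3 held 4620234, 5607726 and 6112822 estimated counts, and high CO2 replicates 1, 2 and 3 held 5140784, 5079605 and 4826380.

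Protein kinases move a phosphate from ATP to serine, threonine or tyrosine residues of other proteins, and protein phosphatases remove it. In plants, animals and fungi they form relays, such as the 3-step mitogen-activated protein (MAP) kinase cascade, and energy gauges, such as AMP-activated kinase (AMPK) and its yeast and plant counterparts SNF1 and SnRK1, which act when carbon or energy runs short. Their activity is set largely by phosphorylation and binding partners, which transcript levels do not show.

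The label was checked against other annotation in the same tables. A gene ontology entry for protein kinase activity was held by 119 of the 139 members, and by 110 genes that are no members. Of the 125 members with a KOG orthology class, 119 had a class that names a kinase. The best matches came from 23 organisms, led by the social amoeba Dictyostelium discoideum with 40 members and Arabidopsis thaliana with 30. Each name below is therefore that of the closest match, and each role is one known from those other species. Among the members, 6 were described as partners of kinases or kinase-like proteins rather than as kinases, among them the AMPK beta and gamma subunits.

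Both groups held a library that stood apart. Low CO2 replicate 1 and high CO2 replicate 3 each had the lowest normalised count of their group in 56 of the 128 members tested (43.8%), beside 28.3% of all 9244 genes tested. The difference in log2 CPM (counts scaled to library size) between low CO2 replicate 1 and the mean of low CO2 replicates 2 and 3 had a median of -0.19 over the members and -0.02 over all genes. For high CO2 replicate 3 against high CO2 replicates 1 and 2, the median was -0.13 over the members and -0.01 over all genes. For many genes whose values turn on these libraries, a log2 fold change marked "without both" is given beside the value from all 6. It comes from a fit without both of them, 2 libraries against 2. It is not given for every such gene, so its absence does not mean that a gene is unaffected. These libraries were picked from the data for standing apart, so the values without both show dependence on them and are not independent evidence.

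Most kinase genes were transcribed at moderate levels, and nearly all were detected. In FPKM, a read count scaled to transcript length and library size, 12 members averaged at least 100, 116 lay between 1 and 100, and 11 were below 1. The median of the member means was 16.1 FPKM, against 23.8 FPKM over all genes. Together the members took 1.32%, 1.41% and 1.40% of the counts in low CO2 replicates 1, 2 and 3, and 1.41%, 1.40% and 1.24% in high CO2 replicates 1, 2 and 3. The shares averaged 1.38% ± 0.05 in low CO2 and 1.35% ± 0.09 in high CO2 (SD, n = 3 each), so the groups overlapped.

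Counts were too low to test in 11 members. Genes described as Nek2 (NO02G05180), abkC (NO01G01270) and kinase 32C (NO03G05270) were at 0 in every library. The others were a 3-phosphoinositide-dependent kinase (NO04G03490), Aurora-2 (NO04G04260), scy1 (NO06G00690), the cAMP-dependent kinase regulatory subunit (NO14G01480), Nek1 (NO14G02660), kinase 16 (NO17G01240) and a pair described as PLK4 (NO23G01620 and NO24G00940). NO17G01240 had 0, 0 and 0 counts in low CO2 libraries and 30, 25 and 0 counts in high CO2 libraries.

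The comparison of low with high CO2 asks which kinase genes respond at the transcript level after 24 h of limited carbon. In low CO2, 2 of the 128 kinase genes tested fell and 0 rose by edgeR's quasi-likelihood test at a Benjamini-Hochberg adjusted p below 0.05 over all genes. The share called was 1.56%, beside 2.12% of all genes tested (1.22% higher and 0.898% lower). At an unadjusted p below 0.05, 23 members passed, 16 higher and 7 lower. That share of 18.0% stands beside 18.6% of all genes, and DESeq2 called 11 members, 7 higher and 4 lower, beside 6.36% of all genes. The FPKM of the groups did not overlap in 23 members, 17 higher and 6 lower in low CO2, beside 25.4% of all genes. The members' share without overlap was also 18.0%. The authors' deposited table of 217 genes holds 3 members, all higher in low CO2, and neither of the 2 that fell by edgeR.

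Differences across the members were small. The log2 fold change (low minus high CO2) had a median of 0.11, beside 0.01 over all genes, and was positive in 77 members and negative in 51. It lay within 2-fold in 119 of 128 members (93.0%, beside 95.2% of all genes). The median standard error was 0.23 for the members and 0.21 for all genes. The range ran from -1.61 for a gene described as DDB_G0267514 (NO08G02080) to 2.29 for a gene described as fhkD (NO17G00760), neither called. In bulk RNA, fewer cells of a kind and less RNA per cell cannot be told apart.

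**Figure D1:**
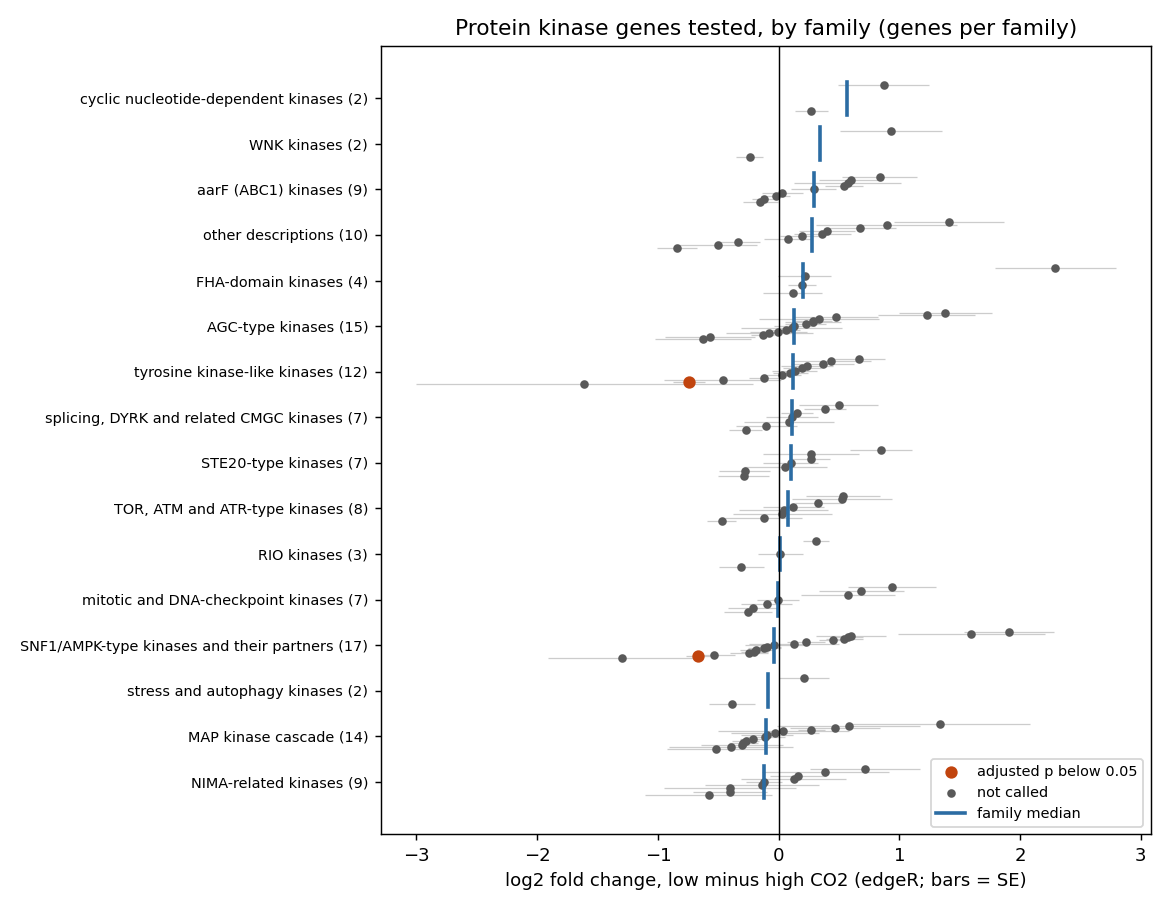
Log2 fold change (low minus high CO2, edgeR, bars show SE) of the 128 kinase genes tested, 1 point each, in 16 families grouped by the words of the descriptions, with the family median as a blue line. The 2 called genes, both below 0, are drawn larger and in orange, and the family medians lie between -0.12 and 0.57.

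The plot of fold changes by family shows no family whose genes were called together. Families were cut from the wording of the descriptions. In 11 of 16 families the median log2 fold change was above 0. The SNF1 and AMPK group held 1 of the calls and the tyrosine kinase-like group held the other, and in the other 14 families 0 genes were called. With 2.12% of all genes called, a count of 0 in a small family says little about that family. Of the 23 members at an unadjusted p below 0.05, 7 were in the SNF1 and AMPK group, 3 in the MAP kinase cascade, 2 each in the AGC, aarF and tyrosine kinase-like groups and among other descriptions, and 1 each in the FHA, RIO, STE20, TOR and mitotic groups.

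The SNF1 and AMPK group held the most abundant member. All 17 were tested, 8 with a positive and 9 with a negative log2 fold change, with a median of -0.04. In 7 of them (41.2%) the groups' FPKM did not overlap, 5 higher and 2 lower in low CO2, beside 25.4% of all genes (13.6% higher and 11.8% lower). The group includes the kinases, their beta and gamma partners, the activating kinase GRIK and the CBL-interacting protein kinases (CIPKs), which in plants are switched on by calcineurin B-like calcium sensors.

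The gene that fell with the smallest p was NO27G00430, whose best match is the SNF-related kinase of rat, a relative of AMPK. It had 40.0, 45.9 and 46.5 FPKM in low CO2, against 67.1, 71.1 and 60.5 FPKM in high CO2. All 3 low CO2 libraries lay below all 3 high CO2 libraries. The log2 fold change was -0.67 (SE 0.10, edgeR adjusted p = 0.0222), and -0.69 without low CO2 replicate 1 and high CO2 replicate 3 (edgeR adjusted p = 3.07e-07). The call was lost without high CO2 replicate 3 alone (edgeR adjusted p = 0.0565), without low CO2 replicate 2 (0.135) or 3 (0.132), and without high CO2 replicate 1 (0.114) or 2 (0.161). By limma on log2(FPKM + 1) the adjusted p was 0.0887, and by DESeq2 it was 1.17e-05.

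A gene close by in locus number, NO27G00480, has the human SNF-related kinase as best match and was the second most abundant member. It had 200.5, 262 and 260.2 FPKM in low CO2, against 161, 157 and 160.4 FPKM in high CO2. All low CO2 libraries were above the high CO2 libraries. The log2 fold change was 0.58 (SE 0.12), just short of a call by edgeR (adjusted p = 0.0555) but called by DESeq2 (adjusted p = 0.00177). Without low CO2 replicate 1 and high CO2 replicate 3 it was 0.67 (edgeR adjusted p = 8.11e-09).

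The third gene with that name, NO10G00220, matches the rat kinase, although its KOG class is that of a checkpoint kinase. It was scarce, with 2.08, 4.63 and 4.09 FPKM in low CO2, against 1.14, 0.86 and 0.76 FPKM in high CO2, and the groups did not overlap. Its log2 fold change of 1.91 (SE 0.37) also missed the threshold (edgeR adjusted p = 0.0513; without both 2.04, edgeR adjusted p = 0.000151). DESeq2 called it (adjusted p = 0.0012), as did edgeR with RLE scaling (adjusted p = 0.0494). The authors' deposited table of 217 genes lists it with a log2 fold change of 1.93 and an adjusted p of 0.00189. The 3 SNF-related genes thus differed in sign, 1 below 0 and called by edgeR and 2 above 0 and near edgeR's threshold.

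**Figure D2:**
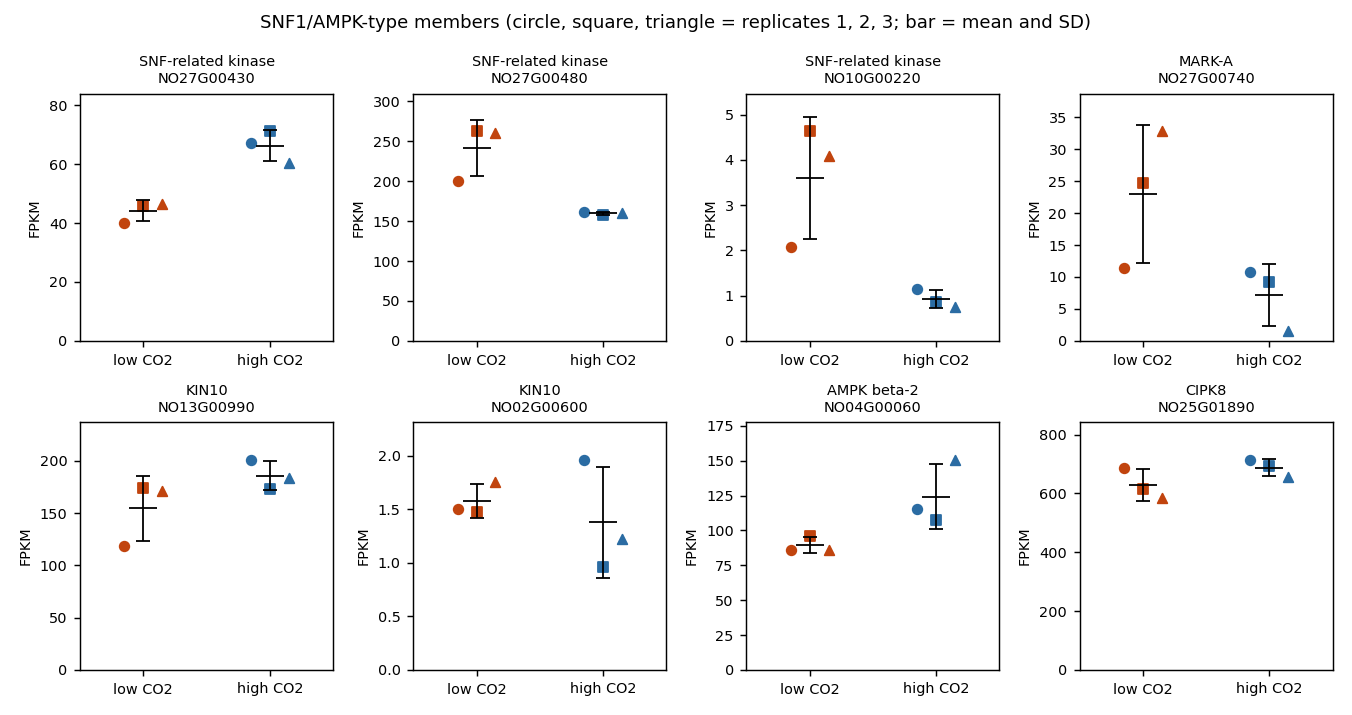
FPKM of 8 genes of the SNF1 and AMPK group in each library, low CO2 at left and high CO2 at right of each panel, with circles, squares and triangles for replicates 1, 2 and 3 and bars for the mean and SD. NO27G00430 is the called gene, with 40.0 to 46.5 FPKM in low CO2 and 60.5 to 71.1 FPKM in high CO2.

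Genes described as SNF1-type catalytic subunits did not pass the test with all 6 libraries. NO13G00990, described as KIN10, the SnRK1 catalytic subunit of Arabidopsis, had 118, 174 and 171 FPKM in low CO2, against 201, 173 and 183 FPKM in high CO2. The groups overlapped, with low CO2 replicate 1 the lowest library (log2 fold change -0.25, SE 0.16, edgeR adjusted p = 0.425; without both -0.15, edgeR adjusted p = 0.144). The other gene described as KIN10, NO02G00600, averaged 1.48 FPKM over the 6 libraries. A gene described as the yeast-type carbon catabolite-derepressing kinase, NO14G01080, had 1.70, 0.70 and 0.64 FPKM in low CO2, against 2.96, 3.19 and 1.01 FPKM in high CO2, with overlap through both libraries that stood apart (edgeR adjusted p = 0.300; without both -2.29, edgeR adjusted p = 0.000802).

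The partners of the kinase were measured too. NO04G00060, described as the AMPK beta-2 subunit, which carries the complex's glycogen-binding module in mammals, had 86.0, 96.0 and 86.0 FPKM in low CO2, against 116, 107 and 150.5 FPKM in high CO2. The groups did not overlap, but the log2 fold change of -0.54 (SE 0.17) was not called (edgeR adjusted p = 0.164; without both -0.39, edgeR adjusted p = 0.0031). NO21G00440, the gamma subunit that binds adenine nucleotides, had 95.9, 97.6 and 109 FPKM in low CO2 and 103, 105 and 93.6 FPKM in high CO2, with full overlap. GRIK1 (NO07G01250), which activates SnRK1 in Arabidopsis, averaged 41.7 FPKM and had a log2 fold change of 0.23 (edgeR adjusted p = 0.473).

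Among the CIPK-type genes, CIPK8 (NO25G01890) was the most abundant of all members. It had 688, 614 and 583 FPKM in low CO2, against 713, 693 and 657 FPKM in high CO2. The groups overlapped through low CO2 replicate 1, and the log2 fold change was -0.18 (SE 0.13, edgeR adjusted p = 0.491; without both -0.33, edgeR adjusted p = 1.09e-05). CIPK32 (NO30G00580) had 52.7, 55.3 and 54.5 FPKM in low CO2, against 39.2, 39.8 and 35.4 FPKM in high CO2, without overlap (log2 fold change 0.45, edgeR adjusted p = 0.105). CIPK2 (NO27G00720) had 86.5, 132 and 121 FPKM in low CO2, against 79.7, 78.5 and 63.2 FPKM in high CO2, also without overlap (log2 fold change 0.55, edgeR adjusted p = 0.125). Without both libraries that stood apart, the log2 fold change was 0.38 for CIPK32 (edgeR adjusted p = 0.00469) and 0.58 for CIPK2 (edgeR adjusted p = 3.66e-05). DESeq2 with all 6 libraries called CIPK32 (adjusted p = 0.0361) and CIPK2 (adjusted p = 0.0462). The Arabidopsis CIPK9 type (NO01G05700) had 144, 205 and 208 FPKM in low CO2, against 210.2, 203 and 171 FPKM in high CO2, and the groups overlapped (edgeR adjusted p = 0.663).

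Locus numbers placed 5 SNF1-type members among the 32 genes from NO27G00430 to NO27G00740, and no other kinase member lies there. They differed in sign. Besides the called gene they were NO27G00480, CIPK2, CIPK9 (NO27G00450) and a gene described as MARK-A (NO27G00740), a Dictyostelium relative of the microtubule affinity-regulating kinases. MARK-A had 11.4, 24.7 and 32.8 FPKM in low CO2, against 10.8, 9.18 and 1.61 FPKM in high CO2. The groups did not overlap, yet low CO2 replicate 1 lay close to high CO2 replicate 1 (log2 fold change 1.60, SE 0.61, edgeR adjusted p = 0.226; without both 1.42, edgeR adjusted p = 1.20e-05).

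The other gene that fell was NO09G02050, in the tyrosine kinase-like group. Its best match is R826, a putative receptor-type kinase of mimivirus, and it has no KOG class. It had 51.4, 70.5 and 71.5 FPKM in low CO2, against 114, 108 and 86.8 FPKM in high CO2. Every low CO2 library lay below every high CO2 library, by the least margin between low CO2 replicate 3 and high CO2 replicate 3. The log2 fold change was -0.75 (SE 0.13, edgeR adjusted p = 0.0388), and -0.75 without low CO2 replicate 1 and high CO2 replicate 3 (edgeR adjusted p = 1.25e-08). As for NO27G00430, the call was lost when any library other than low CO2 replicate 1 was left out alone, with edgeR adjusted p between 0.0565 and 0.186. By limma on log2(FPKM + 1) the adjusted p was 0.132, and by DESeq2 it was 0.000298.

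The other 11 genes of that group, a set of plant and amoeba kinases whose catalytic domain resembles tyrosine kinases, were not called. HT1 (NO16G00330), which in Arabidopsis takes part in the stomatal response to CO2, had 167, 223 and 178 FPKM in low CO2, against 226, 199 and 201 FPKM in high CO2. The groups overlapped, and the log2 fold change was 0.03 (SE 0.16, edgeR adjusted p = 0.932), with the sign turning negative under several alternatives given further on. STY8 (NO22G00660), whose Arabidopsis namesake phosphorylates plastid transit peptides, had 162, 148 and 155 FPKM in low CO2, against 175.5, 160 and 148 FPKM in high CO2. The group also holds NO08G02080, the gene with the lowest log2 fold change. It had 0, 1.54 and 8.05 FPKM in low CO2, against 16.6, 11.8 and 0 FPKM in high CO2, with the zeros in the libraries that stood apart (SE 1.40, edgeR adjusted p = 0.562; without both -1.65, edgeR adjusted p = 0.256).

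Genes of the MAP kinase cascade were called 0 times among the 14 tested, beside 2.12% of all genes. They include kinases of all 3 tiers, MAP kinases, MAP kinase kinases and MAP kinase kinase kinases. Their median log2 fold change was -0.10, with 5 above and 9 below 0. In 0 of them did the groups' FPKM separate, beside 25.4% of all genes. The most abundant, a kinase kinase kinase described as MAPKKK2 (NO14G03100), had 180, 237 and 217 FPKM in low CO2, against 180.3, 172 and 166 FPKM in high CO2. Low CO2 replicates 2 and 3 lay above the high CO2 range and replicate 1 lay in it (log2 fold change 0.27, SE 0.11, edgeR adjusted p = 0.253; without both 0.32, edgeR adjusted p = 0.00043).

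In the AGC group, named after the cyclic nucleotide-dependent kinases and protein kinase C, 0 of 15 tested genes were called, and the median log2 fold change was 0.13. YPK1 (NO28G01200), a regulator of plasma membrane lipids in yeast, had 15.0, 5.44 and 5.98 FPKM in low CO2, against 2.86, 2.81 and 3.85 FPKM in high CO2. The groups did not overlap, and low CO2 replicate 1 was the highest library (log2 fold change 1.38, SE 0.39, edgeR adjusted p = 0.128; without both 0.98, edgeR adjusted p = 0.00538). Without low CO2 replicate 1 alone the log2 fold change was 0.87 (edgeR adjusted p = 0.0509). DESeq2 with all 6 libraries called YPK1 (adjusted p = 0.0213). The authors' deposited table lists it with a log2 fold change of 1.39 and an adjusted p of 0.0257. AtPK1/AtPK6 (NO15G01940), the Arabidopsis ribosomal S6 kinase type, had 11.8, 15.9 and 19.1 FPKM in low CO2, against 9.03, 7.29 and 2.76 FPKM in high CO2, without overlap (log2 fold change 1.23, SE 0.40, edgeR adjusted p = 0.170; without both 1.00, edgeR adjusted p = 0.00516). The kinases that switch AGC kinases on, 3-phosphoinositide-dependent kinase 1, had 3 tested genes, with log2 fold changes of at most 0.13 in size. The most abundant AGC gene, of the RAC family (NO12G00450) that is known in animals as AKT, had 88.5, 94.1 and 95.9 FPKM in low CO2, against 102, 99.1 and 88.1 FPKM in high CO2, with overlap (edgeR adjusted p = 0.498). Its log2 fold change without both was -0.20 (edgeR adjusted p = 0.0139).

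The cyclic nucleotide-dependent kinases themselves had 2 tested genes with positive values. The cAMP-dependent catalytic subunit (NO07G00550) had 58.2, 54.8 and 50.7 FPKM in low CO2, against 44.5, 46.6 and 39.3 FPKM in high CO2. Those groups did not overlap (log2 fold change 0.27, SE 0.14, edgeR adjusted p = 0.331). The cGMP-dependent kinase 1 type (NO10G01760) had 7.44, 7.93 and 4.22 FPKM in low CO2, against 4.08, 2.14 and 4.03 FPKM in high CO2, again without overlap (log2 fold change 0.87, SE 0.37, edgeR adjusted p = 0.270).

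The 4 genes named after forkhead-associated kinases of Dictyostelium all had positive log2 fold changes, from 0.12 to 2.29, and 0 were called. Their names are loose, since the KOG class of both fhkD genes is a calcium and calmodulin-dependent kinase and their nearest database protein is a citrus phosphoenolpyruvate carboxylase kinase. The highest log2 fold change of all members belonged to the shorter fhkD gene, NO17G00760, with a model of 915 bases. It had 7.60, 12.9 and 9.92 FPKM in low CO2, against 2.73, 2.70 and 0.76 FPKM in high CO2, without overlap (SE 0.50, edgeR adjusted p = 0.0681; without both 2.01, edgeR adjusted p = 0.00134). DESeq2 called NO17G00760 (adjusted p = 0.00245). The authors' deposited table gives a log2 fold change of 2.28 for it, with an adjusted p of 0.00539. The gene next to it, NO17G00750, has 3 transcript models and a mean transcript length of 3273 bases. NO17G00750 had 46.5, 56.6 and 51.1 FPKM in low CO2, against 40.2, 43.1 and 43.5 FPKM in high CO2 (log2 fold change 0.19, SE 0.12, edgeR adjusted p = 0.404).

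Reads of such neighbours could be split between models, so their separate values are uncertain. There were 7 pairs of members with consecutive locus numbers, 6 of them with the same description. Summed over the fhkD pair, low CO2 libraries held 162 ± 17.8 CPM and high CO2 libraries 130 ± 5.95 CPM (SD, n = 3 each). The other pairs were of abkC, 3-phosphoinositide-dependent kinase 1, in 2 places, MAP kinase kinases 1 and 2, DDB_G0267514 and ATR.

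Alpha-protein kinases form a small separate class, seen in Dictyostelium as vwkA. The gene described as vwkA, NO05G00240, had 12.6, 18.2 and 14.2 FPKM in low CO2, against 28.6, 26.6 and 20.8 FPKM in high CO2. The groups did not overlap, and the log2 fold change of -0.84 (SE 0.17) missed the threshold narrowly (edgeR adjusted p = 0.0527). Without low CO2 replicate 1 and high CO2 replicate 3 it was -0.89 (edgeR adjusted p = 1.31e-05). DESeq2 called NO05G00240 (adjusted p = 0.00167), as did edgeR with a length trend removed (adjusted p = 0.0282). A gene described as RasGEF kinase X (NO02G04700) had 3.13, 4.54 and 4.23 FPKM in low CO2, against 2.22, 1.47 and 0.55 FPKM in high CO2, without overlap (log2 fold change 1.41, SE 0.45, edgeR adjusted p = 0.165; without both 1.14, edgeR adjusted p = 0.017).

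Kinases of cell growth and DNA damage, the TOR, ATM and ATR type, had 8 tested genes, 0 calls and a median log2 fold change of 0.08. The estimates of the 2 genes described as mTOR, the growth regulator, differed in sign, and neither was called by edgeR with all 6 libraries. NO16G00740 had 90.4, 112 and 95.0 FPKM in low CO2, against 137, 126 and 128 FPKM in high CO2, without overlap (log2 fold change -0.47, SE 0.12, edgeR adjusted p = 0.106). DESeq2 called NO16G00740 (adjusted p = 0.0418), as did edgeR without low CO2 replicate 1 (adjusted p = 0.0398). Without both, the log2 fold change of NO16G00740 was -0.45 (edgeR adjusted p = 0.00178). NO16G00740 has 4 transcript models and a mean transcript length of 1011 bases. Its KOG class is labelled DNA-dependent protein kinase, and those of NO08G04260 are labelled ATM/Tel1 and PI-3 kinase family. Since no label names mTOR, both names are uncertain. NO08G04260 had 10.5, 15.0 and 12.2 FPKM in low CO2, against 9.09, 9.97 and 10.8 FPKM in high CO2, with overlap at low CO2 replicate 1 (log2 fold change 0.33, edgeR adjusted p = 0.399; without both 0.53, edgeR adjusted p = 0.0181).

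The aarF or ABC1 kinases of plastids and mitochondria, whose bacterial namesake UbiB is needed for ubiquinone synthesis, had 9 tested genes, 6 above and 3 below 0, with a median of 0.29 and 0 calls. The abkC gene NO01G01260 had 27.2, 35.7 and 38.3 FPKM in low CO2, against 22.4, 25.0 and 18.0 FPKM in high CO2. It was the family's gene without overlap (log2 fold change 0.54, SE 0.16, edgeR adjusted p = 0.135). Without both, its log2 fold change was 0.53 (edgeR adjusted p = 1.62e-05). UbiB (NO26G01840) had 7.90, 17.5 and 16.4 FPKM in low CO2, against 9.05, 9.82 and 4.76 FPKM in high CO2, with low CO2 replicate 1 inside the high CO2 range (log2 fold change 0.84, SE 0.31, edgeR adjusted p = 0.214; without both 0.88, edgeR adjusted p = 1.23e-05). Of the genes named after chloroplast proteins of Arabidopsis, all 4 had log2 fold changes between -0.15 and 0.03.

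STE20-type kinases, which act upstream of MAP kinase cascades or on ion transport, had 7 tested genes and 0 calls. OSR1 (NO01G02210), which in mammals acts on chloride cotransporters below the WNK kinases, had 67.2, 98.2 and 103 FPKM in low CO2, against 65.4, 46.8 and 29.9 FPKM in high CO2. The groups did not overlap, but low CO2 replicate 1 lay close to high CO2 replicate 1 (log2 fold change 0.85, SE 0.26, edgeR adjusted p = 0.15; without both 0.74, edgeR adjusted p = 0.00177). DESeq2 with all 6 libraries called OSR1 (adjusted p = 0.0436). Of the WNK genes, WNK3 (NO01G00670) had 7.48, 15.95 and 21.8 FPKM in low CO2, against 9.29, 8.95 and 4.25 FPKM in high CO2, with overlap at low CO2 replicate 1 (edgeR adjusted p = 0.288; without both 0.95, edgeR adjusted p = 0.00714). The other, WNK2 (NO23G00730), had 41.7, 56.4 and 53.6 FPKM in low CO2, against 60.3, 54.8 and 54.3 FPKM in high CO2, also with overlap (edgeR adjusted p = 0.298).

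None of the kinases of RNA processing and ribosome assembly was called. The RIO kinase rio1 (NO23G00940), needed in yeast and humans for maturing the small ribosomal subunit, had 92.4, 104 and 101 FPKM in low CO2, against 78.2, 73.0 and 83.3 FPKM in high CO2, without overlap (log2 fold change 0.31, SE 0.11, edgeR adjusted p = 0.198). The most abundant splicing-type kinase, PRP4 (NO05G02490), had 91.0, 129 and 124 FPKM in low CO2, against 101, 107 and 85.2 FPKM in high CO2, with overlap (edgeR adjusted p = 0.563). In that family of 7 genes the log2 fold changes ran from -0.27 to 0.50. The autophagy kinase ATG1c (NO15G01130) had 82.3, 66.4 and 59.2 FPKM in low CO2, against 81.9, 86.3 and 92.3 FPKM in high CO2, with overlap through low CO2 replicate 1 (log2 fold change -0.39, edgeR adjusted p = 0.313; without both -0.53, edgeR adjusted p = 7.64e-06).

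In many members low CO2 replicate 1 stood apart from low CO2 replicates 2 and 3. In 61 members (47.7%, beside 34.6% of all genes) replicates 2 and 3 of low CO2 lay outside the high CO2 range and replicate 1 did not lie on their side. They were above that range in 41 members and below it in 20. In 19 members (14.8%, beside 7.62% of all genes) low CO2 replicate 1 was at least 2-fold above the mean of low CO2 replicates 2 and 3 in log2 CPM. It was at least 2-fold below in 10 members (7.81%, beside 4.31% of all genes). These counts were chosen after the values were seen and compare libraries of 1 group, not the conditions.

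Among the 19 genes were 6 of the 14 tested in the MAP kinase cascade, 5 of 15 in the AGC group, 4 of 9 NIMA-related kinases and 2 of 7 STE20-type kinases. The Nek2-type gene NO26G01070, whose human namesake acts in centrosome separation, had 50.8, 12.3 and 16.7 FPKM in low CO2, against 39.6, 44.4 and 35.6 FPKM in high CO2. MAP kinase 5 (NO13G00100) had 69.9, 18.1 and 24.5 FPKM in low CO2, against 47.2, 53.8 and 45.2 FPKM in high CO2. In both, low CO2 replicate 1 was the highest of the 6 libraries and the other low CO2 libraries were the lowest. With all libraries the log2 fold change of NO26G01070 was -0.58 (edgeR adjusted p = 0.58; without both -1.59, edgeR adjusted p = 3.62e-06), and that of NO13G00100 was -0.39 (edgeR adjusted p = 0.711; without both -1.35, edgeR adjusted p = 0.00015).

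In 3 more genes low CO2 replicates 2 and 3 were the lowest libraries. MMK1 (NO08G03120), a MAP kinase of alfalfa, had 17.4, 6.90 and 7.44 FPKM in low CO2, against 15.5, 16.5 and 12.3 FPKM in high CO2. CBK1 (NO04G04670), a yeast kinase of polarised growth, had 26.7, 10.4 and 11.7 FPKM in low CO2, against 27.0, 23.3 and 23.3 FPKM in high CO2. A gene described as protein kinase 2 (NO15G03170) had 79.4, 39.9 and 43.3 FPKM in low CO2, against 91.1, 84.2 and 68.6 FPKM in high CO2. In these 3 genes low CO2 replicate 1 lay in or above the high CO2 range, and edgeR adjusted p was 0.428 to 0.523 with all libraries. The log2 fold change without both was -1.26 for NO08G03120 (edgeR adjusted p = 1.35e-05), -1.29 for NO04G04670 (edgeR adjusted p = 4.08e-08) and -1.29 for NO15G03170 (edgeR adjusted p = 4.66e-09).

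**Figure D3:**
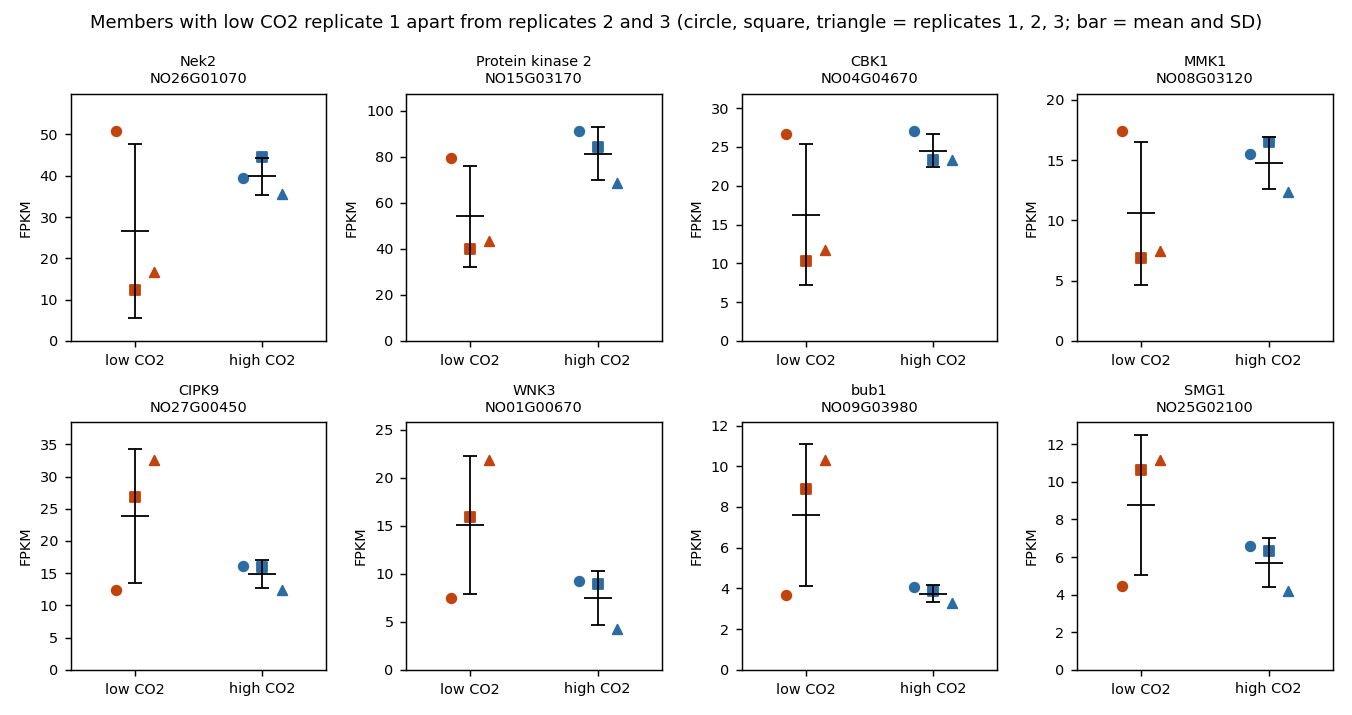
FPKM of 8 kinase genes in each library, low CO2 at left and high CO2 at right, with circles, squares and triangles for replicates 1, 2 and 3 and bars for the mean and SD. In the upper row low CO2 replicates 2 and 3 lie below the high CO2 libraries, as in Nek2 with 12.3 and 16.7 FPKM, and in the lower row they lie above, with low CO2 replicate 1 in each case within the high CO2 range or above it.

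Other genes had the mirrored form. CIPK9 (NO27G00450) had 12.4, 26.8 and 32.5 FPKM in low CO2, against 16.1, 16.02 and 12.3 FPKM in high CO2. The gene described as bub1 (NO09G03980), a spindle checkpoint protein, had 3.66, 8.87 and 10.3 FPKM in low CO2, against 4.07, 3.86 and 3.26 FPKM in high CO2. SMG1 (NO25G02100), which acts in the decay of faulty mRNA in animals, had 4.48, 10.6 and 11.2 FPKM in low CO2, against 6.58, 6.33 and 4.2 FPKM in high CO2. In each of them low CO2 replicate 1 lay inside the high CO2 range while the other low CO2 libraries lay above it. With all libraries edgeR adjusted p was 0.314 for NO27G00450, 0.233 for NO09G03980 and 0.389 for NO25G02100. Without both, the log2 fold change was 0.78 for NO27G00450 (edgeR adjusted p = 2.82e-05), 1.17 for NO09G03980 (edgeR adjusted p = 0.00178) and 0.65 for NO25G02100 (edgeR adjusted p = 5.01e-05).

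Leaving out low CO2 replicate 1 alone raised the number of kinase genes called to 31 of 130 tested, 16 higher and 15 lower, with 17.2% of all genes called. Leaving out high CO2 replicate 3 as well gave 64 of 130 (49.2%), 34 higher and 30 lower, beside 36.6% of all genes. Both called genes were among the 64. In that comparison of 2 with 2 libraries, 3 genes of the MAP kinase cascade were called higher and 9 lower of 14, and in the SNF1 group 7 higher and 5 lower of 17. Of all 9300 genes tested there, 1597 were called higher and 1805 lower. In 6 MAP kinase cascade genes low CO2 replicate 1 was at least 2-fold above replicates 2 and 3, so leaving it out lowers their values. The cascade's count of falls is thus not independent evidence.

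Kinase genes were long. The mean transcript length had a median of 2927 bases over the 139 members, against 1728 bases over all genes, and 116 members were longer than the median gene. The shortest had 753 bases and the longest, the ATM-type gene NO12G03990, had 13054 bases. Of the 128 members tested, 107 fell in the 4 of 8 equal-sized length bins that hold the longest genes.

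Deviations of the libraries that stood apart went with length over all genes. In the bin of the shortest genes, low CO2 replicate 1 differed from the mean of the other low CO2 libraries by a median of 0.22 on the log2 scale, and in the bin of the longest by -0.20. For high CO2 replicate 3, the same medians were 0.26 and -0.13. The members' own medians did not fall with length in this way, and the shortest bin held 0 members. From bin 2 to bin 8 they were -0.23, -0.17, -0.34, -0.44, -0.17, -0.02 and -0.12 for low CO2 replicate 1. For high CO2 replicate 3 they were -0.42, -0.18, -0.38, -0.29, -0.24, -0.05 and -0.13. The median log2 fold change between groups ran over the same bins from -0.16 to 0.13 for all genes. For the 33 members in the bin of the longest genes it was -0.04, and for the 12 members in the fifth bin it was 0.37. When a smooth trend on length was removed from each library, 4 members were called, 1 higher and 3 lower, both called genes among them. In that fit the median log2 fold change was 0.043 over the members and 0.015 over all genes, against 0.109 and 0.014 without the correction.

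**Figure D4:**
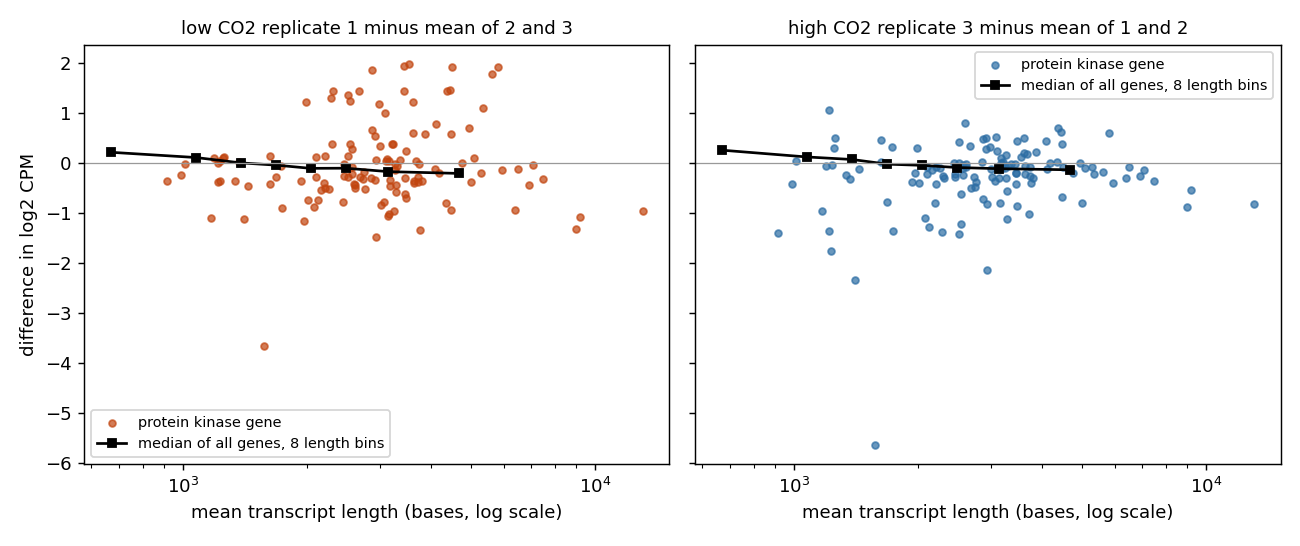
Difference in log2 CPM between a library that stood apart and the mean of the other libraries of its group (low CO2 replicate 1 at left, high CO2 replicate 3 at right) against mean transcript length in bases on a log axis, 1 point per kinase gene tested. The black line joins the medians of all genes in 8 length bins, from 0.22 to -0.20 at left and from 0.26 to -0.13 at right, and the kinase genes scatter widely about it.

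The transcript length used for FPKM differed between libraries in 66 members, since 68 had more than 1 transcript model. In 2 members, NO08G00230 and NO21G00590, it differed over 1.1-fold between groups without overlap, beside 1.29% of all genes. For NO21G00590, described as plk-2, a polo-type mitotic kinase of Caenorhabditis elegans, counts and FPKM went opposite ways. Estimated counts were 14, 29 and 32 in low CO2 and 20, 11 and 12 in high CO2, with overlapping groups. The length was 3840, 3911 and 3840 bases in low CO2 and 482, 583 and 346 bases in high CO2.

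Its FPKM was 0.84, 1.41 and 1.45 in low CO2, against 15.5, 6.12 and 20.9 in high CO2. By counts the log2 fold change was 0.57 (SE 0.39, edgeR adjusted p = 0.455), and by log2(FPKM + 1) it was -2.63 (limma adjusted p = 0.0366). Few counts stood behind both. It was the 1 member with non-overlapping FPKM for which the signs differed.

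**Figure D5:**
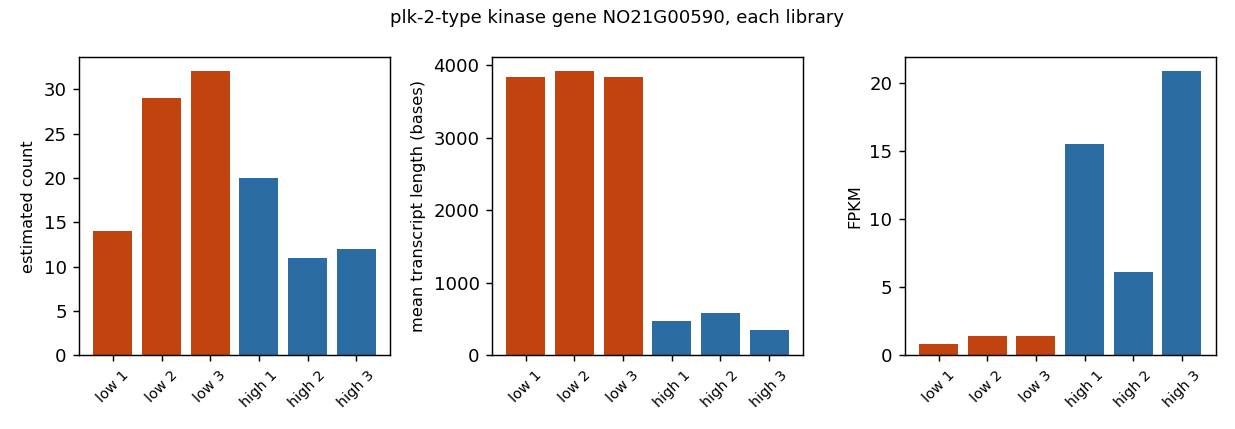
Estimated counts, mean transcript length in bases and FPKM of the plk-2-type gene NO21G00590 in each of the 3 low CO2 libraries (left, orange) and 3 high CO2 libraries (right, blue). Counts overlap between groups, while the length is 3840 to 3911 bases in low CO2 and 346 to 583 bases in high CO2, and FPKM is higher where the length is shorter.

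The other mitotic kinases did not pass the test. Aurora-1 (NO29G01050), which acts in plant cell division, had 80.8, 62.2 and 61.7 FPKM in low CO2, against 71.2, 73.7 and 89.3 FPKM in high CO2, with overlap (log2 fold change -0.25, SE 0.20, edgeR adjusted p = 0.517). Without both, its log2 fold change was -0.34 (edgeR adjusted p = 0.000588). Genes described as mps1, tousled-like 1 and Wee1 were not called, with edgeR adjusted p of 0.996 for NO13G01920, 0.83 for NO03G03020 and 0.607 for NO10G03130.

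Other genes of protein phosphorylation were taken from word lists, for protein phosphatases, calcium and calmodulin kinases, cyclin-dependent kinases, cyclins, casein kinases, 14-3-3 proteins and kinase activators. The lists thus hold kinases outside the member rule as well as genes that act with kinases. Of 118 such genes 115 were tested, 4 rose, 0 fell and 111 were not called by edgeR's quasi-likelihood test. That is 3.48%, beside 2.12% of all genes. DESeq2 called 6 (5.22%), beside 6.36% of all genes. Their median log2 fold change was 0.09. The genes that rose were 2 of 62 phosphatases and 2 of 15 calcium and calmodulin kinases, and none came from the other lists. The call of NO06G02770 held under all 14 alternatives. The call of NO15G00050 was lost under 5, without low CO2 replicate 3 or any 1 high CO2 library and with a replicate block. The calls of NO19G00970 and NO15G00720 were each lost under 7, which were these, limma on log2(FPKM + 1) and leaving out low CO2 replicate 2.

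The phosphatase DUSP10 (NO19G00970), which in mammals removes phosphate from stress-activated MAP kinases, had 529.6, 522 and 495 FPKM in low CO2, against 387, 355 and 369 FPKM in high CO2. The groups did not overlap, and the lowest low CO2 library was replicate 3 (log2 fold change 0.63, SE 0.10, edgeR adjusted p = 0.0294). The type described as phosphatidylglycerophosphatase and protein-tyrosine phosphatase 1 (NO15G00720) had 12.3, 19.5 and 20.3 FPKM in low CO2, against 7.63, 6.94 and 6.07 FPKM in high CO2, also without overlap (log2 fold change 1.26, SE 0.22, edgeR adjusted p = 0.0379).

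Of the calcium-type kinases, the gene described as type 1 (NO06G02770) had 47.4, 47.5 and 45.9 FPKM in low CO2, against 14.8, 14.9 and 13.8 FPKM in high CO2. The replicates of each group were close to each other, low CO2 replicate 1 included, and the groups did not overlap (log2 fold change 1.63, SE 0.12, edgeR adjusted p = 0.00135). The type II alpha gene (NO15G00050) had 208, 186 and 206 FPKM in low CO2, against 93.6, 104 and 96.8 FPKM in high CO2, again without overlap (log2 fold change 0.98, SE 0.13, edgeR adjusted p = 0.0142). Neither is a member, since the word rule leaves calcium-type kinases out.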

How the data were processed

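Per the labels' protocols, RNA was extracted with Trizol and libraries were made by Illumina protocols. Per the submitters' processing notes, the tools were STAR, StringTie, featureCounts, Picard, Trim Galore and edgeR, in roles and versions not stated; the genome build and annotation are not given in the sources used here. Per the file headers, the deposited tables hold an expected count, a TPM, an FPKM and a transcript length per gene and library. The authors' FPKM values served for levels, and their deposited TPM values were not used. A further table deposited by the authors holds log2 fold changes, p-values and adjusted p-values for 217 genes.

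Expected counts were rounded to whole numbers. Of 10633 genes, 9244 passed filterByExpr. After TMM scaling, low CO2 was compared with high CO2 by edgeR's robust quasi-likelihood test (edgeR 4.0.16, under R 4.3.3), with Benjamini-Hochberg adjustment over every gene tested and no replicate block. Biological variation had a coefficient of 23.1%. The procedure was tested on simulated data. Depth was 4620234 to 6112822 counts per library, and having 3 libraries per group limits the precision.

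The kinase genes and lists were chosen with earlier results of these data known. Genes were named by rule if called, among the 6 most abundant, among the 6 largest differences in either direction without overlap and averaging 1 FPKM or more, or the most abundant or smallest-p gene of a family; of the other lists, the called genes were named. Further genes in the text were chosen after their values were seen. The alternatives were DESeq2 1.42.0, limma 3.58.1 on log2(FPKM + 1) where the mean was 1 FPKM or more, RLE scaling, a replicate block, a length trend removed, no filter, at least 50 counts on average, and fewer libraries. No gene sequence was used.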

Additional observations from a re-analysis of the deposited data

How the results depend on the processing

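The median log2 fold change of the kinase genes and the number of families above 0 kept their direction under all 14 alternatives. The median of 0.109 became 0.043 with the length trend removed, 0.060 without low CO2 replicate 1 and high CO2 replicate 3, and 0.071 with at least 50 counts on average. The number of kinase genes called did not: beside 2, it was 11 with DESeq2, 1 with limma on FPKM, 4 with the length trend removed, 64 without low CO2 replicate 1 and high CO2 replicate 3, and 0 to 31 leaving out 1 library at a time. The 31 came without low CO2 replicate 1, and the count was 0 by edgeR without each of the other 5, with 15 to 22 genes at an unadjusted p below 0.05. Over all genes the count of 196 became 588 with DESeq2, 3402 without both libraries, and 18 to 1610 leaving out 1. For the phosphatases and the other word lists, which include kinases outside the member rule, the count of 4 became 2 with limma, 33 without both libraries, and 1 to 16 leaving out 1. The cause was not tested.

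Same-numbered replicates did not deviate together (correlations of -0.36, 0.08 and -0.43 for pairs 1, 2 and 3). With 3 libraries per group and 1 standing apart in each, these correlations cannot decide whether the numbers pair samples. The labels state no pairing beyond the numbers. With a replicate block edgeR called 21 genes, among them 0 members (16 at an unadjusted p below 0.05). From the other word lists it called 1, the calcium-type kinase NO06G02770 (edgeR adjusted p = 0.0434).

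Of 501 pairs of a named kinase gene and an alternative, 435 kept their side, 45 newly passed, 14 lost a call and 7 turned sign. The reversals were pakC (NO02G03710), with -0.157 without low CO2 replicate 1 and -0.019 without high CO2 replicate 1, in a range up to 0.28 leaving out 1 library; HT1 (NO16G00330), with -0.151 by limma, -0.027 without both libraries, and -0.096 to 0.107 leaving out 1; and NO22G01090, with -0.028 without both, and a range up to 0.309 leaving out 1. The 14 lost calls were those of NO27G00430 and NO09G02050.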

Other observations

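The most abundant STE20-type gene was pakC (NO02G03710), a p21-activated kinase of Dictyostelium. It had 172, 128 and 121 FPKM in low CO2, against 107, 120.5 and 149.7 FPKM in high CO2. The groups overlapped, with low CO2 replicate 1 the highest and high CO2 replicate 3 the second highest of the 6 libraries (edgeR adjusted p = 0.835). Both dst1-type genes of that family also overlapped between groups.

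Where a description was shared, levels often were not. The Nek2-type genes averaged 33.2 FPKM for NO26G01070, 24.6 FPKM for NO23G00760, 12.0 FPKM for NO17G02100 and 0.94 FPKM for NO17G02980, while NO02G05180 was at 0. Of these, NO23G00760 had 26.2, 24.1 and 21.8 FPKM in low CO2, against 25.4, 25.5 and 24.5 FPKM in high CO2, so that low CO2 replicate 1 did not stand apart as it did in NO26G01070.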
